A study of Mus musculus with 10 samples.

Results

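Toll-like receptor mRNA was followed in bone marrow–derived macrophages (BMDMs) for 10 receptor genes of 55573 genes in the table. The genes were chosen by name, and each was found once by its Ensembl identifier. They are Tlr3, Tlr7, Tlr8, Tlr9 and Tlr13, grouped as endosomal, and Tlr1, Tlr2, Tlr4, Tlr5 and Tlr6, grouped as surface. Proteins of the endosomal group signal from endosomes and those of the surface group mainly from the cell surface. The study states that mice lack functional TLR8, so Tlr8 is followed here as mRNA only. BMDMs were grown with M-CSF from the marrow of female C57BL/6 mice of WT genotype, and the age of the mice is not given in the sources used here. Treatment lasted 4 hours in each of 5 groups, and every group has 2 libraries labelled as biological replicates, which makes 10 libraries. One group received vehicle, another R848, and the rest received polyU, the combination called PNPi+dG/rG, or both of these together. PolyU was 5 μg of a synthetic ssRNA of uridines complexed with the lipid carrier DOTAP. The combination PNPi+dG/rG held 5 μM deoxyguanosine, 5 μM guanosine and ulodesine at 1 μM, which inhibits purine nucleoside phosphorylase (PNP). R848, a synthetic imidazoquinoline, was used at 1 ng/mL. No group received DOTAP, ulodesine or the nucleosides alone among the samples analysed here, so their separate effects cannot be told apart. The comparisons address how the receptors for nucleic acids and for microbial surface molecules were expressed after stimulation of TLR7 by nucleosides with ssRNA or by a synthetic ligand.

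Toll-like receptors are membrane proteins that bind microbial or self molecules with an outer domain and pass the signal through an inner TIR domain to the adaptors MyD88 or TRIF. The endosomal receptors bind nucleic acids and need the chaperone UNC93B1 to leave the endoplasmic reticulum, whereas the surface receptors bind lipids, lipoproteins and flagellin. TLR7 binds guanosine and short uridine-rich ssRNA at separate sites, and imidazoquinolines occupy the nucleoside site. TLR3 binds double-stranded RNA, TLR9 DNA with unmethylated CpG, and TLR13, which mice have and humans lack, bacterial ribosomal RNA. TLR2 pairs with TLR1 or TLR6 to bind lipoproteins, TLR4 binds lipopolysaccharide with MD-2, and TLR5 binds flagellin.

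Among the 9 receptors tested, which leave out Tlr5, the 6 with the largest change in any comparison with vehicle were chosen. Their upstream sequences are shown so that the results can be set beside the DNA before the start sites. They are RefSeq sequences of GRCm38.p6, printed 5′ to 3′ on the strand of the gene, within 250 bases before a RefSeq start site and outside annotated exons. Positions are chr3:83841768-83841858 on the minus strand for Tlr2, chr5:64933564-64933808 (minus) for Tlr1, chr5:64959167-64959416 (minus) for Tlr6, chrX:167264330-167264579 (minus) for Tlr8, chr9:106222348-106222597 (plus) for Tlr9 and chrX:106143025-106143203 (plus) for Tlr13. Capitals mark letters that match a searched motif on either strand.
Tlr2: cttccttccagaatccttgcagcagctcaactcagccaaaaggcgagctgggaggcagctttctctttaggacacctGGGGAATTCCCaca
Tlr1: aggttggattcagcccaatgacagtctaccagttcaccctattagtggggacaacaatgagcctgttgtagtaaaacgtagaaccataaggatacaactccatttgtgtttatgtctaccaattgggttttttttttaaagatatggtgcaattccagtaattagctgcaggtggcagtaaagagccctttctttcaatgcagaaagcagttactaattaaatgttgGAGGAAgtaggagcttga
Tlr6: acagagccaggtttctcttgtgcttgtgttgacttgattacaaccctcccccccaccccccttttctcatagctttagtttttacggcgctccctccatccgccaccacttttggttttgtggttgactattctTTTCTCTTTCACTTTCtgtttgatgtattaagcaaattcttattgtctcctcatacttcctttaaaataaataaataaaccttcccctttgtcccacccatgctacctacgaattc
Tlr8: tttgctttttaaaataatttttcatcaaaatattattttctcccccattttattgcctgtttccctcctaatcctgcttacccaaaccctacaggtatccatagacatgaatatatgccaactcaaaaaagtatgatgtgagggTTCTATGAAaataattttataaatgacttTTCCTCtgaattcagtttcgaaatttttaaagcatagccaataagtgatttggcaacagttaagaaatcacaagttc
Tlr9: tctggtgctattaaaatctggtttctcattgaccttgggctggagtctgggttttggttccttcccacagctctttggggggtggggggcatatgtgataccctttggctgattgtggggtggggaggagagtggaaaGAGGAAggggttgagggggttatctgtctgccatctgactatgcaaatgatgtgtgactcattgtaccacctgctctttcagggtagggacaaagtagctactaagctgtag
Tlr13: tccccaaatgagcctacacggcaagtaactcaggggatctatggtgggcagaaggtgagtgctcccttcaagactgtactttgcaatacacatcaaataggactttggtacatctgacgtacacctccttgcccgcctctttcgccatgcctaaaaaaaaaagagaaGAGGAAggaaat
The capitals in Tlr2 are overlapping matches to the κB consensus, the motif bound by NF-κB, and those in Tlr6 are 2 overlapping matches to the IRF motif GAAANNGAAA on the opposite strand. Tlr8 holds a STAT motif (TTCNNNGAA) and, on the opposite strand, the PU.1 motif GAGGAA. Tlr1, Tlr9 and Tlr13 each hold GAGGAA, which PU.1, the lineage factor of macrophages, can bind. Windows of 300 bases, from 250 before to 50 after each start, held the κB consensus in 8.46%, the IRF motif in 3.44%, the STAT motif in 8.30% and GAGGAA in 28.3% of 32851 RefSeq windows searched on both strands. The Tlr6 stretch lies in the intron of the annotated gene, before a second RefSeq start. The stretch before the other Tlr6 start, chr5:64960098-64960298 (minus), held no match and is not printed. STAT matches in that window ran from -3 to 6 and from 8 to 16, at or after the start. A window at another Tlr1 start also held a STAT match. The Tlr2 window held a further κB match at its start site. The Tlr3 window held a κB match from -211 to -202 and lies in an annotated exon, so it is not printed. No letters matched in the Tlr5 window. A match describes the letters only.

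The libraries held between 14128123 and 38392592 reads on genes, worked out from the step between low values, and 3 reads, the least amount taken as detectable, were worth 0.0781 to 0.212 CPM (reads on a gene relative to all reads on genes). Depth was greatest in PNPi+dG/rG libraries and least in PNPi+dG/rG+polyU libraries. The 9 macrophage markers summed to 15210 to 18260 CPM, and Csf1r, Adgre1 and Lyz2 were high in every library. Within that list, Mertk was at 32.4 to 40.6 CPM in vehicle, polyU and PNPi+dG/rG libraries and at 5.36 to 9.84 CPM in PNPi+dG/rG+polyU and R848 libraries. Defining markers of B cells (Cd79a, Ms4a1), T cells (Cd3e, Cd3d), plasmacytoid dendritic cells (Siglech, Klk1), conventional dendritic cells (Xcr1) and neutrophils (Ly6g) were at or near 0 throughout. Cd79a and Ms4a1 were each at most 0.168 CPM in any library. The conventional dendritic cell list summed to at most 1.06 CPM, the T cell list to at most 6.02 CPM, nearly all from Trac, and the plasmacytoid list to 70.8 to 109 CPM, nearly all from Tcf4. Ccr9, on the plasmacytoid list, stood at 2.41 and 2.39 CPM in PNPi+dG/rG+polyU and 3.5 and 3.03 in R848 libraries. Elsewhere it was at most 0.349 CPM. Zbtb46, on the conventional list, was highest in PNPi+dG/rG+polyU libraries, at 0.779 and 0.563 CPM. The 5 fibroblast markers summed to 132 and 139 CPM in R848 libraries, to 3.68 and 5.00 CPM in PNPi+dG/rG+polyU libraries and to at most 1.02 CPM elsewhere. Col1a1, Col1a2 and Pdgfrb made up nearly all of it, while Lum was at most 0.141 CPM in any library. S100a8 carried the neutrophil list to 21.1 and 23.4 CPM in R848 libraries, against at most 7.57 CPM elsewhere. S100a9, on the same list, went the other way, at 0.0531 and 0 CPM in R848 libraries and 1.1 to 3.52 CPM elsewhere. The part of these markers in the R848 results was not tested. In bulk RNA, fewer cells of a type and less RNA per cell cannot be told apart.

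In vehicle BMDMs, Tlr13 was the most abundant receptor mRNA per length. Levels per length are CPM divided by kb of annotated exon, the only scale on which genes are compared here. Tlr13 stood at 151 and 153 CPM per kb, followed by Tlr7 at 40.7 and 34.8. Tlr8, Tlr2, Tlr4 and Tlr1 came next, in that order, with libraries that did not overlap between neighbours. Tlr9, Tlr6 and Tlr3 lay between 3.52 and 5.03 CPM per kb, and Tlr6 and Tlr3 overlapped. Tlr5 came last at 0.117 CPM per kb in both libraries. The same gene headed the order after polyU and after PNPi+dG/rG. After PNPi+dG/rG+polyU and after R848, Tlr2 came first, and Tlr13 stood below Tlr1, Tlr7 and Tlr8.

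**Figure D1:**
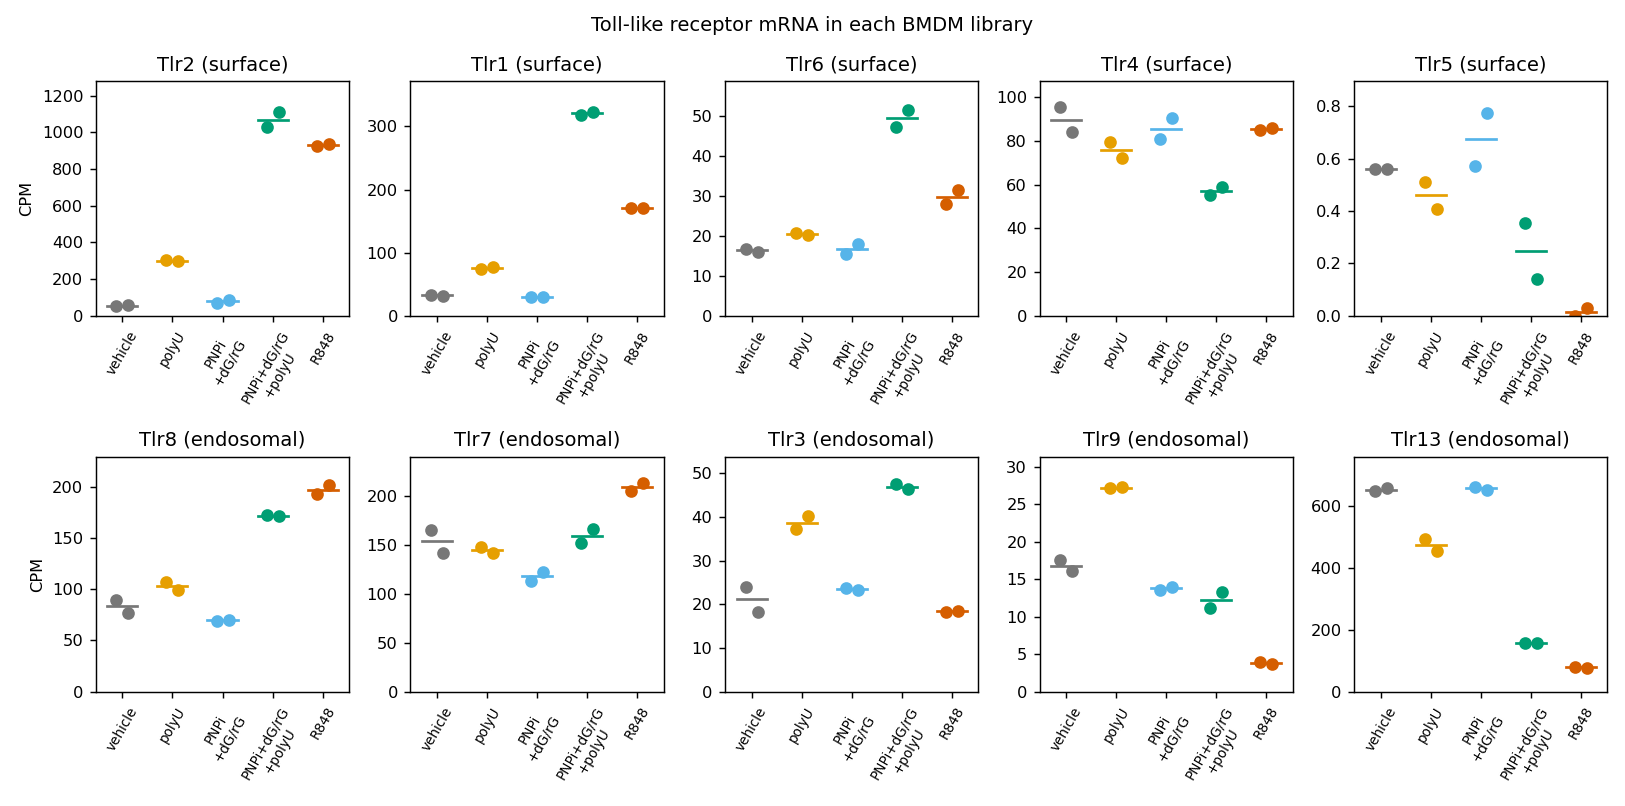
Level of each receptor mRNA in CPM on a linear axis from 0, with 1 point per library, 2 libraries per group and a line at their mean. Tlr2 and Tlr1 were highest in PNPi+dG/rG+polyU libraries, Tlr13 and Tlr9 were lowest in R848 libraries, and Tlr7 stayed between 113 and 214 CPM.

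Tlr7, the receptor that the treatments target, varied least among the endosomal receptors. It stood at 166 and 142 CPM in vehicle, 148 and 142 in polyU, 113 and 123 in PNPi+dG/rG, 152 and 166 in PNPi+dG/rG+polyU and 205 and 214 in R848 libraries. R848 libraries were above all others and PNPi+dG/rG libraries below all others, while polyU and PNPi+dG/rG+polyU libraries lay close to or within the range of the vehicle libraries. R848 raised Tlr7 by 0.45 on the log2 scale (SE 0.07, limma adjusted p = 3.97e-05), and PNPi+dG/rG gave -0.38 (SE 0.07, limma adjusted p = 0.0257). PolyU gave -0.08 (adjusted p = 0.379) and PNPi+dG/rG+polyU gave 0.05 (adjusted p = 0.524), with 95% confidence intervals from -0.23 to 0.07 and from -0.10 to 0.20. Single libraries moved these calls: polyU passed without vehicle replicate 2 (-0.20, adjusted p = 0.0388), PNPi+dG/rG+polyU passed without vehicle replicate 1 (0.16, adjusted p = 0.0498), and PNPi+dG/rG did not pass without vehicle replicate 1 (-0.27, adjusted p = 0.131), PNPi+dG/rG replicate 1 (adjusted p = 0.212) or 2 (adjusted p = 0.0908). After centring every library at its own median gene, called centred libraries here, PNPi+dG/rG+polyU passed as well (0.26, adjusted p = 0.00408). The gene spans positions 167304929 to 167330558 of chromosome X on GRCm38, minus strand, near Tlr8.

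Tlr8, the neighbour of Tlr7 on chromosome X (167242696 to 167264329, minus strand), rose after R848 and after both treatments that held polyU. Its levels were 89.4 and 76.8 CPM in vehicle, 107 and 99.5 in polyU, 68.7 and 70.2 in PNPi+dG/rG, 172 and 171 in PNPi+dG/rG+polyU and 193 and 202 in R848 libraries. No group overlapped another. The log2 fold change against vehicle was 0.31 (SE 0.06, limma adjusted p = 0.00109) after polyU, 1.05 (SE 0.06, adjusted p = 6.11e-10) after PNPi+dG/rG+polyU and 1.25 (SE 0.06, adjusted p = 3.61e-11) after R848. PNPi+dG/rG gave -0.26 (SE 0.06, adjusted p = 0.101), which passed the test without vehicle replicate 2 (-0.36, adjusted p = 0.0168) and with each library centred on its median (-0.29, adjusted p = 0.0378).

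Tlr3 was higher with polyU, alone or combined, and did not pass the test with R848. It stood at 23.8 and 18.3 CPM in vehicle, 37.2 and 40.2 in polyU, 23.8 and 23.2 in PNPi+dG/rG, 47.4 and 46.3 in PNPi+dG/rG+polyU and 18.3 and 18.5 in R848 libraries. Groups with polyU lay above all others, and R848 libraries lay near the lower vehicle library. Tlr3 rose by 0.89 on the log2 scale after polyU (SE 0.10, limma adjusted p = 4.83e-06) and by 1.16 after PNPi+dG/rG+polyU (SE 0.10, adjusted p = 4.65e-08). R848 gave -0.18 (SE 0.10, adjusted p = 0.107), a value of 0.41 (adjusted p = 0.00185) with centred libraries, and -0.37 (adjusted p = 0.00154) without vehicle replicate 2. The gene (chromosome 8, 45395665 to 45411080, minus strand) overlaps an antisense gene, Gm45542, over 381 exonic bases, and the use of strand in counting is not given in the sources used here.

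Tlr9 moved in opposite directions with polyU and with R848. It stood at 17.5 and 16.1 CPM in vehicle, 27.1 and 27.3 in polyU, 13.6 and 13.9 in PNPi+dG/rG, 11.2 and 13.2 in PNPi+dG/rG+polyU and 3.88 and 3.70 in R848 libraries. PolyU libraries were above and R848 libraries below all others. It rose by 0.70 on the log2 scale after polyU (SE 0.11, limma adjusted p = 0.000143) and was 4.43-fold lower after R848 (log2 fold change -2.15, SE 0.11, adjusted p = 4.10e-11). After PNPi+dG/rG+polyU the log2 fold change was -0.47 (SE 0.11, adjusted p = 0.00162), which did not pass with each library centred on its median (-0.26, adjusted p = 0.0564). The gene lies on chromosome 9 at 106222598 to 106226883, plus strand.

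Tlr13 fell most of the 9 tested receptors. It stood at 650 and 658 CPM in vehicle, 494 and 456 in polyU, 663 and 654 in PNPi+dG/rG, 158 and 156 in PNPi+dG/rG+polyU and 80.0 and 77.8 in R848 libraries. Vehicle and PNPi+dG/rG libraries overlapped, and the other groups stood apart from them and from each other. Against vehicle it was 1.38-fold lower after polyU (log2 fold change -0.46, SE 0.04, limma adjusted p = 6.62e-07), 4.17-fold lower after PNPi+dG/rG+polyU (-2.06, SE 0.04, adjusted p = 1.71e-15) and 8.29-fold lower after R848 (-3.05, SE 0.04, adjusted p = 9.93e-18). The gene lies on chromosome X at 106143204 to 106160493, plus strand.

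Tlr2 rose more than any other receptor tested. It stood at 53.0 and 59.3 CPM in vehicle, 306 and 296 in polyU, 70.8 and 85.7 in PNPi+dG/rG, 1029 and 1110 in PNPi+dG/rG+polyU and 923 and 937 in R848 libraries. No group overlapped another. The gene (chromosome 3, 83836272 to 83841767, minus strand) was 5.37-fold higher after polyU (log2 fold change 2.42, SE 0.08, limma adjusted p = 5.75e-09), 19.1-fold higher after PNPi+dG/rG+polyU (4.25, SE 0.08, adjusted p = 5.53e-12) and 16.6-fold higher after R848 (4.05, SE 0.08, adjusted p = 4.17e-12). The κB letters shown above lie just before its annotated start.

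Both partners of TLR2 rose as well, Tlr1 far more than Tlr6. Tlr1 stood at 33.6 and 31.0 CPM in vehicle, 73.6 and 77.4 in polyU, 30.01 and 29.1 in PNPi+dG/rG, 318 and 323 in PNPi+dG/rG+polyU and 170 and 171 in R848 libraries. Its log2 fold change was 1.23 after polyU (SE 0.06, limma adjusted p = 1.92e-10), 3.31 after PNPi+dG/rG+polyU (SE 0.06, adjusted p = 1.64e-16) and 2.40 after R848 (SE 0.06, adjusted p = 1.65e-15), and no group overlapped another. In contrast to Tlr2, Tlr1 in R848 libraries stood well below its level in PNPi+dG/rG+polyU libraries. Tlr6 stood at 16.8 and 16.1 CPM in vehicle, 20.9 and 20.2 in polyU, 15.6 and 17.9 in PNPi+dG/rG, 47.4 and 51.6 in PNPi+dG/rG+polyU and 27.9 and 31.6 in R848 libraries. Its vehicle and PNPi+dG/rG libraries overlapped and the other groups did not. Its log2 fold change was 0.32 (SE 0.09, limma adjusted p = 0.0118) after polyU, 1.59 (SE 0.09, adjusted p = 3.54e-10) after PNPi+dG/rG+polyU and 0.85 (SE 0.09, adjusted p = 4.04e-07) after R848. The polyU call did not pass without vehicle replicate 2 (adjusted p = 0.0626) or polyU replicate 1 (adjusted p = 0.0572). Both genes lie on chromosome 5, minus strand, Tlr1 at 64924679 to 64933563 and Tlr6 at 64952031 to 64960097. They share sequence: 15.4% of the 50-base words of Tlr1 and 12.3% of those of Tlr6 occur in another gene, mostly in each other, and how reads in such stretches were assigned is not given in the sources used here.

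Tlr4 was the tested surface receptor whose level fell. It stood at 95.5 and 83.8 CPM in vehicle, 79.3 and 71.9 in polyU, 80.8 and 90.3 in PNPi+dG/rG, 55.4 and 58.8 in PNPi+dG/rG+polyU and 84.7 and 85.8 in R848 libraries. PNPi+dG/rG+polyU libraries lay below all others, and vehicle, PNPi+dG/rG and R848 libraries overlapped. The log2 fold change was -0.65 (SE 0.07, limma adjusted p = 1.25e-06) after PNPi+dG/rG+polyU and -0.24 (SE 0.07, adjusted p = 0.0155) after polyU, and the latter did not pass without vehicle replicate 1 (-0.15, adjusted p = 0.196) or without polyU replicate 2 (-0.17, adjusted p = 0.156). R848 gave -0.07 (SE 0.07, adjusted p = 0.386), or 0.52 (adjusted p = 6.67e-06) with each library centred on its median. The gene lies on chromosome 4 at 66827584 to 66930284, plus strand.

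Tlr5 was near the limit of detection and did not reach the filter of 1 CPM in 2 libraries, so it has no test here. The gene (chromosome 1, 182954788 to 182976044, plus strand) had 10 and 10 reads in vehicle, 9 and 7 in polyU, 22 and 29 in PNPi+dG/rG, 5 and 2 in PNPi+dG/rG+polyU and 0 and 1 in R848 libraries. In CPM, the ratio of R848 to vehicle was 0.0346 with an exact 95% interval from 0.000834 to 0.216, which covers counting error only. The ratio for PNPi+dG/rG+polyU was 0.440, with an interval from 0.157 to 1.08. The remaining mouse receptors were fainter still: Tlr11 was at most 0.284 CPM in any library, and Tlr12 had a read in 1 PNPi+dG/rG library only.

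Across the family, polyU moved 8 of 9 tested receptors, 6 higher and 2 lower at an adjusted p under 0.05 in limma. Of all 11978 genes tested, 20.6% were higher and 18.7% lower in that comparison. After PNPi+dG/rG+polyU, 5 receptors were higher and 3 lower, beside 22.2% and 46.7% of all genes. R848 also raised 5 and lowered 2, beside 19.2% and 62.9%. The median log2 fold change of the 4 tested surface receptors was 0.77 after polyU, 2.45 after PNPi+dG/rG+polyU and 1.63 after R848, and that of the 5 endosomal receptors was 0.31, 0.05 and -0.18. All genes tested had medians of 0.02, -0.22 and -0.50, so a receptor that kept its CPM after R848 stood above the typical gene. Relative to those medians, Tlr7 stood at 0.27 after PNPi+dG/rG+polyU and 0.95 after R848, Tlr4 at -0.43 and 0.43, Tlr3 at 1.39 and 0.32, and Tlr13 at -1.84 and -2.55. With each library centred on its median, all genes called split into 3979 higher and 3973 lower after PNPi+dG/rG+polyU and 5146 and 4150 after R848, in place of 2660 and 5594 and of 2300 and 7535, and the receptors into 6 higher and 2 lower and 7 and 2. These comparisons share the vehicle libraries.

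**Figure D2:**
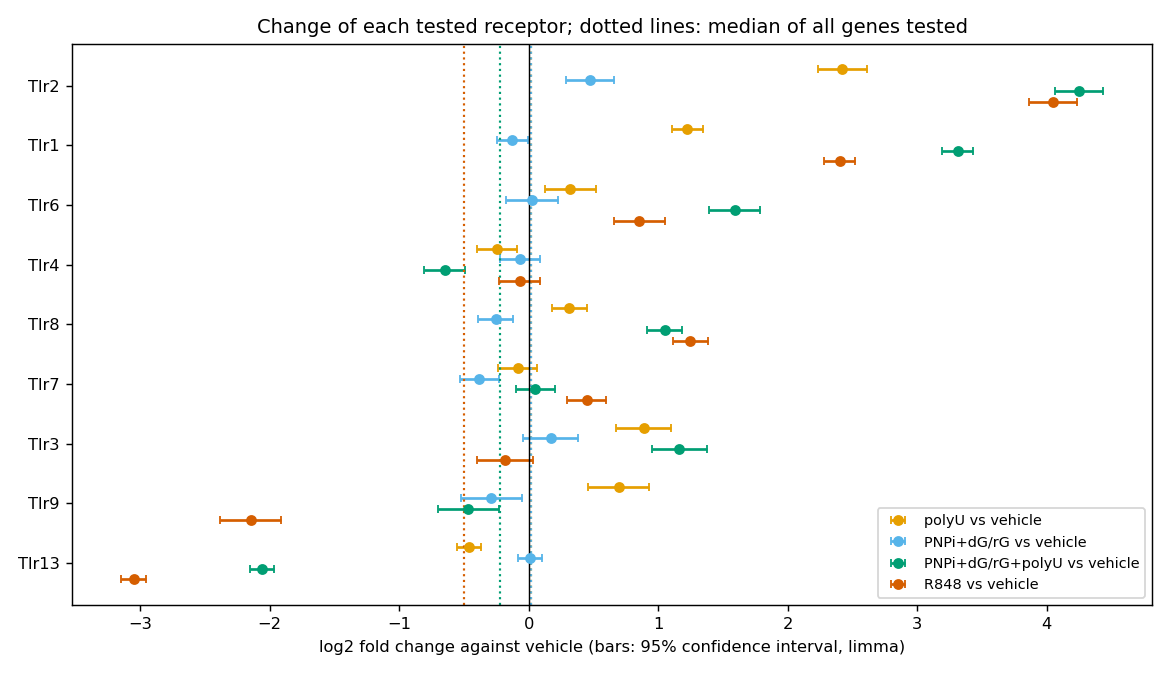
Log2 fold change of the 9 tested receptors against vehicle, with 95% confidence intervals from limma over 2 libraries per group, and dotted lines at the median of all genes tested in the comparison of the same color. Tlr2, Tlr1, Tlr6 and Tlr8 lie to the right of 0 and Tlr13 to the left in the 3 comparisons other than PNPi+dG/rG alone.

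Without polyU, PNPi+dG/rG left most receptors near vehicle. Among the 9 tested, Tlr2 was higher (log2 fold change 0.47, SE 0.08, limma adjusted p = 0.0339) and Tlr7 lower, beside 0.409% of all genes higher and 0.392% lower. An unadjusted p under 0.05 was found for 5 receptors, beside 1076 of all 11978 genes tested. Neither call was stable: Tlr2 had adjusted p-values up to 0.316 and Tlr7 up to 0.347 under the alternatives run, and leaving out vehicle replicate 1 or PNPi+dG/rG replicate 2 left 0 calls. Tlr2 also failed to pass without either polyU library (adjusted p = 0.088 and 0.0907) or either PNPi+dG/rG+polyU library (adjusted p = 0.0522 and 0.052), which enter this comparison through the shared spread. Added to polyU, the same nucleosides and inhibitor moved 5 receptors higher and 3 lower than polyU alone, beside 15.8% and 47.5% of all genes, a comparison that shares the polyU and PNPi+dG/rG+polyU libraries with those above. Tlr1 rose by 2.09 on the log2 scale (SE 0.06, limma adjusted p = 6.73e-14), Tlr2 by 1.83 (SE 0.08, adjusted p = 1.29e-08) and Tlr6 by 1.27 (SE 0.09, adjusted p = 1.02e-08). Tlr8 also rose, by 0.74 (SE 0.06, adjusted p = 8.12e-08), whereas Tlr13 (-1.60, SE 0.04, adjusted p = 9.20e-14), Tlr9 (-1.16, SE 0.11, adjusted p = 2.46e-07) and Tlr4 (-0.40, SE 0.07, adjusted p = 0.000212) fell. Tlr3 was higher by 0.28 (SE 0.10, adjusted p = 0.0259), which did not pass without polyU replicate 1 or without either PNPi+dG/rG+polyU replicate, and Tlr7 gave 0.14 (adjusted p = 0.106), which passed without vehicle replicate 1 (adjusted p = 0.0467) or 2 (adjusted p = 0.0465). With centred libraries Tlr7 passed (0.39, adjusted p = 0.000269) and Tlr4 did not (-0.15, adjusted p = 0.0898), and the split of all genes called changed from 1897 higher and 5685 lower to 3604 and 3035.

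The effect of PNPi+dG/rG depended on polyU for 8 of 9 receptors, tested as an interaction in limma: 5 were positive and 3 negative, beside 11.8% and 38.9% of all genes. A positive value means a more positive effect of PNPi+dG/rG in the presence of polyU. Tlr1 had the largest, 2.21 (SE 0.08, limma adjusted p = 8.00e-12), followed by Tlr2, Tlr6, Tlr8 and Tlr7. For Tlr7, PNPi+dG/rG gave -0.38 without polyU, a call that was not stable. With polyU it gave 0.14, which did not pass (limma adjusted p = 0.106). Tlr13 had the lowest, -1.61 (SE 0.06, adjusted p = 1.75e-11), below Tlr9 and Tlr4. Tlr3, which polyU raised by itself, gave 0.11 (SE 0.14, adjusted p = 0.546) with an interval from -0.20 to 0.41, though it passed without vehicle replicate 2 (0.30, adjusted p = 0.0435) and with centred libraries (0.40, adjusted p = 0.0401). The Tlr4 value of -0.34 (SE 0.10, adjusted p = 0.0142) did not pass without vehicle replicate 2, polyU replicate 1, PNPi+dG/rG replicate 2 or PNPi+dG/rG+polyU replicate 1 (-0.29 to -0.24, adjusted p from 0.0594 to 0.0793), and became -0.05 (adjusted p = 0.735) with centred libraries, where all genes called split into 2888 positive and 2037 negative in place of 1415 and 4654.

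**Figure D3:**
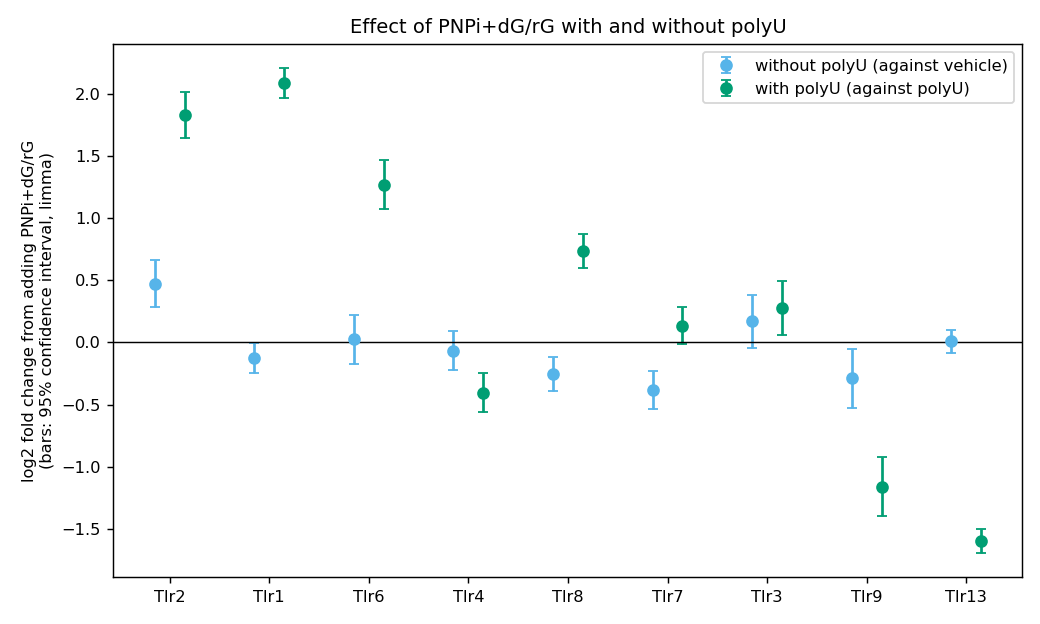
Log2 fold change from adding PNPi+dG/rG without polyU (blue, against vehicle) and with polyU (green, against polyU), with 95% confidence intervals from limma over 2 libraries per group. Tlr1, Tlr6 and Tlr13 were near 0 without polyU and at 2.09, 1.27 and -1.60 with it.

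PNPi+dG/rG+polyU and R848 were given at doses that were not matched, so their direct comparison sets these libraries against each other and not the ligands at equal strength. Relative to R848, Tlr9 stood 3.21-fold higher after PNPi+dG/rG+polyU (log2 fold change 1.68, SE 0.11, limma adjusted p = 2.42e-09), Tlr3 2.54-fold (1.35, SE 0.10, adjusted p = 1.03e-08), Tlr13 1.99-fold (0.99, SE 0.04, adjusted p = 2.28e-11), Tlr1 1.88-fold (0.91, SE 0.06, adjusted p = 8.65e-10) and Tlr6 1.66-fold (0.74, SE 0.09, adjusted p = 3.93e-06). Tlr4 (-0.58, SE 0.07, adjusted p = 4.71e-06), Tlr7 (-0.40, SE 0.07, adjusted p = 0.00018) and Tlr8 (-0.20, SE 0.06, adjusted p = 0.0117) were lower, and Tlr8 did not pass without PNPi+dG/rG+polyU replicate 2 (adjusted p = 0.0527) or R848 replicate 2 (adjusted p = 0.0851). Thus 5 receptors were higher and 3 lower, beside 53.9% and 16.9% of all genes, whose median was 0.31. Tlr2 differed by 0.20 (interval 0.01 to 0.39, adjusted p = 0.052), with both PNPi+dG/rG+polyU libraries above both R848 libraries. Its adjusted p ranged from 0.000466 to 0.235 under the alternatives, and its sign turned with centred libraries (-0.18, adjusted p = 0.0784), where all genes called split into 3397 higher and 4486 lower in place of 6451 and 2022. R848 libraries are also those with the fibroblast and S100a8 reads given above.

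The make-up of receptor mRNA turned from mostly endosomal to mostly surface. Summed over the 10 receptors per length, endosomal receptors made up 82.1% and 81.8% in vehicle libraries, and PNPi+dG/rG alone gave 80.3% and 78.2%. The share was 57.7% and 56.8% after polyU, 22.6% and 21.9% after PNPi+dG/rG+polyU and 25.1% and 25.4% after R848. The sum itself rose from 276 and 266 CPM per kb in vehicle to 594 and 627 in PNPi+dG/rG+polyU libraries. Tlr13 and Tlr2 account for most of the turn: Tlr13 fell as a share of the sum, from 54.8% and 57.5% with vehicle to 6.18% and 5.78% with PNPi+dG/rG+polyU, while Tlr2 went from 6.38% and 7.41% to 57.5% and 58.8%. The ratio of Tlr7 to Tlr13 per length was 0.269 and 0.228 in vehicle, then 1.02 and 1.13 in PNPi+dG/rG+polyU and 2.71 and 2.90 in R848 libraries, and that of Tlr7 to Tlr9 was 8.08 and 7.51, 11.6 and 10.7, and 45.1 and 49.2. Among TLR2 partners, the ratio of Tlr1 to Tlr6 went from 2.23 and 2.15 in vehicle to 7.48 and 6.98 in PNPi+dG/rG+polyU libraries. These shares describe mRNA, and protein was not measured in these data.

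**Figure D4:**
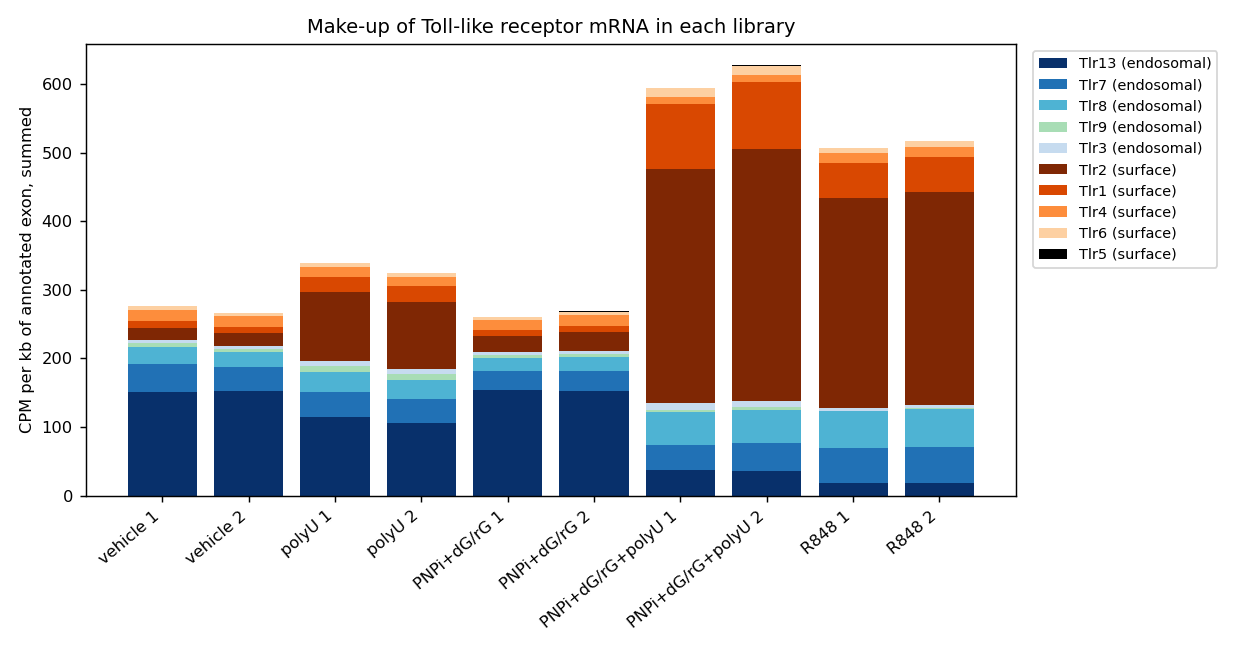
Stacked CPM per kb of annotated exon of the 10 receptors in each library, endosomal receptors in blue and green and surface receptors in brown and orange. Tlr13 makes up 54.8% to 59.1% of the bar in vehicle and PNPi+dG/rG libraries, and Tlr2 makes up 57.5% to 60.4% in PNPi+dG/rG+polyU and R848 libraries.

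Of 44 other genes of the pathway, 42 were tested, and many moved in both directions. PolyU raised 14 and lowered 9, beside 20.6% and 18.7% of all genes tested, and PNPi+dG/rG raised 1 and lowered 0, beside 0.409% and 0.392%. PNPi+dG/rG+polyU raised 18 and lowered 14, beside 22.2% and 46.7% of all genes, and R848 raised 16 and lowered 18, beside 19.2% and 62.9%. The medians of the list lay between -0.02 and -0.00 on the log2 scale. The 1 gene past the test with PNPi+dG/rG was Traf3 (0.25, limma adjusted p = 0.0459), a ubiquitin ligase of the pathway. With centred libraries the split after R848 was 31 higher and 9 lower, beside 5146 and 4150 of all 11978 genes, and that after PNPi+dG/rG+polyU was 26 and 8, beside 3979 and 3973. Among the 6 adaptors, PNPi+dG/rG+polyU raised 5, with Myd88 going from 74.5 and 73.7 CPM in vehicle to 201 and 200 (log2 fold change 1.43, SE 0.06, limma adjusted p = 4.43e-12). All 5 proteases that trim endosomal receptors were lower after PNPi+dG/rG+polyU and after R848, with median log2 fold changes of -0.44 and -0.47, and relative to the median of all genes 3 of 5 stood lower after PNPi+dG/rG+polyU and 2 of 5 after R848.

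Irak3 and Tnfaip3, which encode brakes on receptor signaling, rose most of the 42 pathway genes tested after both stimuli. Ikbke, from the list of kinases, rose nearly as much after PNPi+dG/rG+polyU (log2 fold change 2.82, SE 0.04). Of the 6 tested genes listed as brakes, where Irak3 was not counted, PNPi+dG/rG+polyU raised 2 and lowered 2, beside 22.2% and 46.7% of all genes. R848 raised 2 and lowered 3, beside 19.2% and 62.9%. Irak3, a kinase relative without activity that restrains the MyD88 complex, stood at 34.1 and 32.1 CPM in vehicle libraries, at 244 and 242 CPM after PNPi+dG/rG+polyU and at 535 and 541 CPM after R848. Tnfaip3, which encodes the ubiquitin-editing enzyme A20, stood at 107 and 116, 782 and 803, and 1411 and 1454 CPM. Their log2 fold changes were 2.88 and 2.83 after PNPi+dG/rG+polyU (limma adjusted p = 4.04e-16 and 7.61e-15) and 4.02 and 3.69 after R848 (adjusted p = 4.72e-18 and 2.00e-16). Cd180, a receptor-like protein related to TLR4, fell most after PNPi+dG/rG+polyU, from 843 and 832 to 231 and 217 CPM (log2 fold change -1.91, SE 0.05, limma adjusted p = 6.70e-14), and stood at 57.5 and 65.5 CPM after R848 (-3.77, SE 0.05, adjusted p = 1.34e-17). Il1rl1, the receptor of IL-33, had the next largest fall among pathway genes past the test after PNPi+dG/rG+polyU (-1.26, SE 0.47, limma adjusted p = 0.0281), at no more than 1.18 CPM in any library. Sarm1, a TIR-domain NADase, had 16 and 22 reads in vehicle and 0 and 1 after R848, a ratio of 0.0182 in CPM with an exact 95% counting interval from 0.000449 to 0.108. After PNPi+dG/rG+polyU it had 8 and 4 reads, a ratio of 0.397 (interval 0.189 to 0.776), and its log2 fold change of -1.40 did not pass the test (SE 2.32, limma adjusted p = 0.618).

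The chaperones and accessory proteins of the receptors did not move as a block. Of 10 such genes tested, PNPi+dG/rG+polyU raised 4 and lowered 4, beside 22.2% and 46.7% of all genes. R848 raised 2 and lowered 6, beside 19.2% and 62.9%. Cnpy3 gave -0.48 after PNPi+dG/rG+polyU and -1.22 after R848 (limma adjusted p = 1.73e-05 and 1.54e-10). Hsp90b1 gave -0.07 and -0.88 (limma adjusted p = 0.0885 and 1.44e-12). Unc93b1, the chaperone of the endosomal receptors, stood at 564 and 588 CPM in vehicle, 712 and 728 in polyU, 735 and 733 in PNPi+dG/rG+polyU and 548 and 577 in R848 libraries. It rose by 0.32 on the log2 scale after polyU (SE 0.04, limma adjusted p = 1.51e-05) and by 0.35 after PNPi+dG/rG+polyU (SE 0.04, adjusted p = 1.52e-06), and R848 gave -0.03 (adjusted p = 0.455), which is 0.47 above the median of all genes. Cd14, the co-receptor that hands ligands to TLR4 and TLR2, stood at 466 and 482 CPM in vehicle, 468 and 454 in polyU, 1061 and 1124 in PNPi+dG/rG+polyU and 2985 and 3136 in R848 libraries. Ly96, which encodes the MD-2 partner of TLR4, rose by 0.69 after PNPi+dG/rG+polyU (SE 0.11, limma adjusted p = 5.96e-05) and by 0.79 after R848 (SE 0.11, adjusted p = 8.89e-06), whereas Tlr4 itself gave -0.65 and -0.07.

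**Figure D5:**
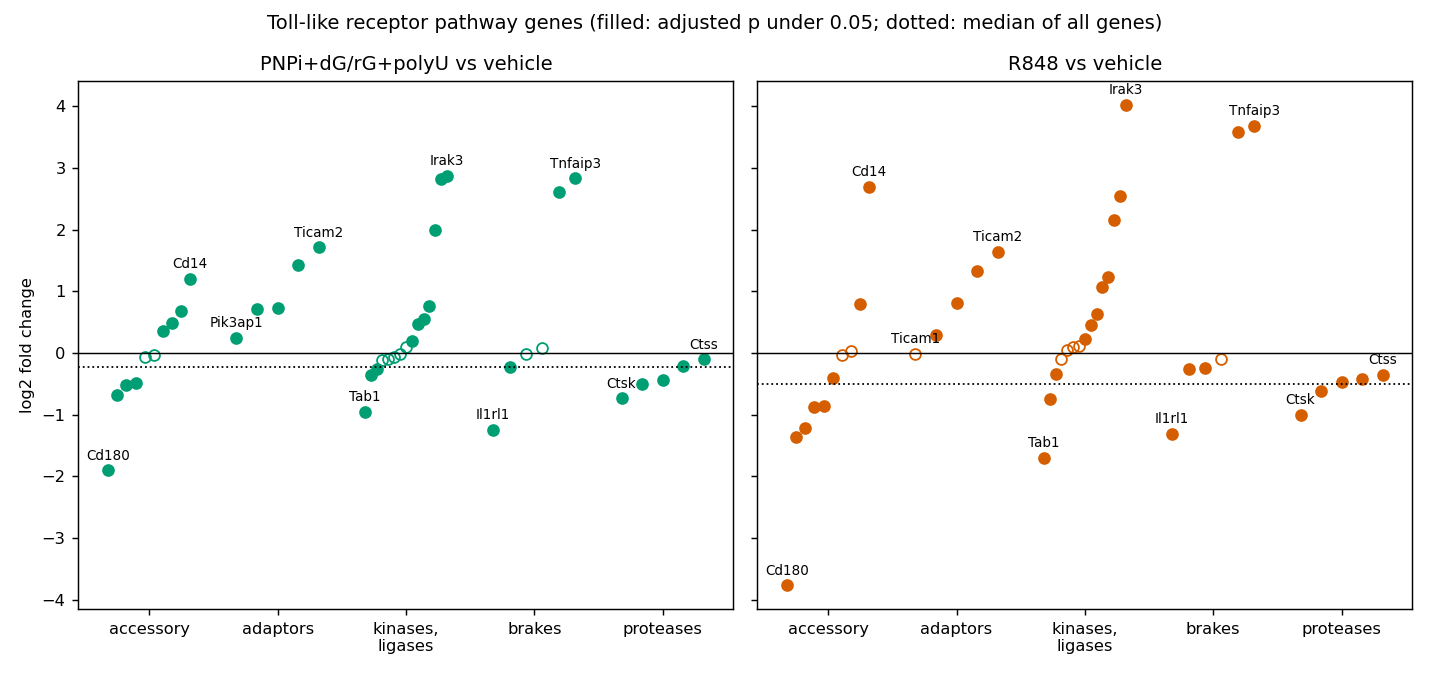
Log2 fold change of the other pathway genes after PNPi+dG/rG+polyU and after R848, grouped by role, with filled points past the test (limma adjusted p under 0.05, 2 libraries per group), open points not past it, and a dotted line at the median of all genes. Sarm1, with 0 and 1 reads after R848, is not plotted in either panel, and the highest and lowest gene of each group is named.

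Profiles over the 10 libraries were compared with those of 8459 genes whose mean was 10 CPM or more, as a description, since all points come from the same libraries. Snrnp35 and Ppfibp1 had the profiles most like Tlr7, with Pearson's r of log2 values of 0.945 and 0.942. Dclre1c and Fbxw17 were among the 3 genes with profiles most like Tlr3, with r of 0.994 and 0.989. Fbxw17 stood at 22.6 and 20.6 CPM in vehicle, 39.9 and 40.7 in polyU, 54.5 and 52.3 in PNPi+dG/rG+polyU and 17.7 and 20.1 in R848 libraries.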

How the data were processed

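RNA-Seq libraries were made by the authors with a stranded mRNA kit, mapped with STAR to GRCm38 (per the submitters' processing notes), counted per gene on the Ensembl release of the study and normalized in Partek Flow. The deposited values are CPM, gene counts divided by the library's total, and each value carries an added 0.0001. CPM is not corrected for strongly induced genes, whose growing share makes every other value in that library smaller. How a read over several genes was assigned is not given in the sources used here. Reads per library were recovered from the step between low values, of which 100% were whole within 0.1 read.

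The tests used limma 3.58.1 (R 4.3.3, statmod 1.5.0) on log2 of the deposited CPM with its offset, with all 5 groups in 1 model, eBayes with trend and robust estimates, and Benjamini-Hochberg adjustment over 11978 genes, those that reached 1 CPM in 2 or more libraries. A log2 fold change is the difference of the group means, and a gene passed at an adjusted p under 0.05. With 2 libraries per group, the model has 5 residual degrees of freedom and borrows spread from other genes, and p-values measure the spread between these libraries. Before use, the fit was run on simulated counts with the vehicle means, the library depths and a known set of changed genes. Every gene had the same fixed spread there, so the simulation cannot tell how the fit does with the spread of these libraries. Exon lengths and positions came from GENCODE M21 on GRCm38, where 55394 of 55573 identifiers have a symbol, and upstream sequences from RefSeq, which lists no window here for Tlr4 and Tlr7. A 50-base word is any stretch of that length in a gene's transcripts.

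The receptors, gene lists and tests were chosen with earlier results of these data known. Named genes are the 10 receptors, Tlr11, Tlr12, the 2 pathway genes with the largest rise and the largest fall after PNPi+dG/rG+polyU or R848, and the 3 genes most like Tlr7 and Tlr3, of which some are not reported here. Traf3, Myd88, Ikbke, Unc93b1, Cd14, Ly96, Cnpy3 and Hsp90b1 were named after their values were seen. Alternatives were pseudocounts of 0.1 and 1, other filters, libraries centred on their median, plain eBayes, a fit of the compared groups alone, a replicate block, and each library left out.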

Additional observations from a re-analysis of the deposited data

Results flagged for a closer look

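The interaction term in limma passed the test for 8 of 9 receptors (2 libraries per group), beside 11.8% of all genes positive and 38.9% negative. For these receptors PNPi+dG/rG acted differently in the presence of polyU and in its absence. On the log2 scale the difference was 2.21 for Tlr1, 1.35 for Tlr2, 1.24 for Tlr6, 0.99 for Tlr8 and 0.52 for Tlr7, and it was -0.34 for Tlr4, -0.87 for Tlr9 and -1.61 for Tlr13. The Tlr7 value sets -0.38 without polyU, a call that was not stable, against 0.14 with it, which did not pass. The Tlr4 value did not pass with centred libraries (-0.05, limma adjusted p = 0.735) or with some single libraries left out, as given above. No group had the 4 libraries that a test for single outlying libraries needs.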

How the results depend on the processing

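Counts of receptors past the test stayed within 1.5 times in 6 of 7 comparisons under 10 alternative settings and with each of 10 libraries left out. The exception was PNPi+dG/rG against vehicle, with 2 receptors, which gave 1 with no filter, 0 with plain eBayes, and 0 to 3 with a library left out, the 3 without vehicle replicate 2. Of 1260 values of single receptors, 1186 kept their direction and side of the threshold, 34 lost the call, 23 gained it and 17 turned sign.

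Signs turned with centred libraries for Tlr13 (-0.023) and Tlr6 (-0.0078) after PNPi+dG/rG, Tlr3 (0.41) and Tlr4 (0.52) after R848, and Tlr2 between PNPi+dG/rG+polyU and R848 (-0.18). With a library left out, values turned sign within these ranges: for PNPi+dG/rG against vehicle, Tlr13 from -0.00072 to 0.019, Tlr3 from -0.022 to 0.36, Tlr4 from -0.16 to 0.027 and Tlr6 from -0.079 to 0.13; for R848, Tlr3 from -0.37 to 0.0083 and Tlr4 from -0.16 to 0.024; for Tlr7, from -0.060 to 0.16 after PNPi+dG/rG+polyU and from -0.20 to 0.029 after polyU; and for the Tlr3 interaction, from -0.082 to 0.30. Vehicle replicates 1 and 2 gave the ends of most of these ranges. The cause was not tested. After PNPi+dG/rG, centred libraries split all genes called into 36 higher and 96 lower in place of 49 and 47.

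The replicate numbers as labelled showed no common pairing: the deviations of same-numbered libraries correlated from -0.29 to 0.11 over 10 pairs of groups. PNPi+dG/rG gave the lowest values, -0.29 with vehicle and -0.27 with polyU, while vehicle with polyU gave 0.11. Whether the samples pair under other numbers is not settled by these values. With the replicate block, 9 receptors passed between PNPi+dG/rG+polyU and R848 in place of 8, since Tlr2 crossed the threshold (adjusted p = 0.0118), and the other 6 counts of receptors did not move. With the PNPi+dG/rG numbers crossed, the 2 receptors past the test after PNPi+dG/rG were Tlr7 and Tlr8, both lower, Tlr2 did not pass, and the other counts of receptors were as before. A test made for read counts was planned and not run, since the offset kept the deposited values from being taken as reads. In its place voom weights on the recovered reads, chosen after seeing the data like the crossed block, gave 3 receptors after PNPi+dG/rG and 9 between PNPi+dG/rG+polyU and R848. Depth limits Tlr5, at no more than 29 reads in any library.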
